A study of Mus musculus with 8 samples.

Results

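The 46 genes described here encode the ligands, receptors, extracellular binding proteins, Smads, Smurfs and Id targets of the bone morphogenetic protein (BMP) and TGF-β pathways. They were picked by gene symbol from a list that uses no measured value as a criterion, although it was drawn up with earlier results of these data known, and all 46 were found among the 18605 genes of the expression table. They comprise 8 BMP and GDF ligands, 3 TGF-β ligands, 2 activin and inhibin subunits, 6 type I receptors, 4 type II receptors, 2 co-receptors together with the pseudoreceptor *Bambi*, 6 extracellular binding proteins, 10 Smad and Smurf genes and 4 Id genes. RNA was sequenced from C3H10T1/2 cells, a line of mouse embryonic mesenchymal cells of the C3H strain, in 4 groups of 2 libraries. NC cells carried a non-target control and KD-Nap1l2 cells an shRNA against *Nap1l2*, a nucleosome assembly protein gene, both delivered by lentivirus and both taken before induction. NC-7d and KD-Nap1l2-7d are the same cells after 7 days in osteogenic medium, which contained dexamethasone, ascorbic acid and β-glycerol phosphate. The comparisons asked how osteogenic induction and the knockdown change expression in these cells.

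Ligands of this family are secreted dimers that bring together type I and type II receptor kinases. BMP-type receptors phosphorylate Smad1, Smad5 and Smad9, TGF-β and activin receptors phosphorylate Smad2 and Smad3, and both sets enter the nucleus with Smad4, where *Id* genes are among the best known direct targets of the BMP branch. In mesenchymal cells BMP signalling promotes commitment to bone, and TGF-β signalling governs matrix production and restrains late osteoblast differentiation. Much of this signalling runs through protein phosphorylation, which RNA levels do not show.

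Library totals ran from 17420284 to 19427359 counts. The targeted gene *Nap1l2* had 3 counts in each NC library and 2 and 7 in KD-Nap1l2, then 15 and 5 in NC-7d and 7 and 13 in KD-Nap1l2-7d. The knockdown could thus not be checked at this depth, and KD-Nap1l2 stands throughout for the libraries so labelled. Mesenchymal markers were abundant, with a summed level of 3287 to 7014 FPKM (fragments scaled to gene length and library size) over 10 genes, although *Nt5e* had at most 3 counts. Summed endothelial and epithelial markers stayed at or below 2.13 FPKM in every library, and the leukocyte gene *Ptprc* had at most 4 counts. The osteoblast genes *Alpl* and *Sp7* had at most 10.4 normalized counts in any library, before or after induction. Some lists differed between groups. The summed FPKM of 6 adipocyte markers was 32.5 to 60.8 in the 4 uninduced libraries and 175 to 229 in the 4 induced ones, that of 8 osteoblast markers 1086 to 1304 and 1487 to 3703, that of 5 smooth muscle markers 699 to 1560.4 and 272 to 649, and that of 5 antigen-presentation genes 25.8 to 243 and 10.4 to 14.6. These sums do not show the direction of most genes of a list. Over induction in NC, 1 of the 5 tested osteoblast markers had a positive log2 fold change and 4 a negative one (median -0.456). In KD-Nap1l2, 3 were positive and 2 negative (median 1.18). Of the 5 tested adipocyte markers, 3 were positive and 2 negative in NC, and 2 positive and 3 negative in KD-Nap1l2. Chondrocyte markers summed to 64.7 to 123 FPKM and leukocyte markers to 13.1 to 23.1 over all libraries. Their part in the values of the 46 genes was not tested. The pairs of libraries in NC-7d and in KD-Nap1l2 were the least alike, with 8.47% and 8.03% of the 13470 tested genes at least 2-fold apart within the pair, against 4.6% in NC and 3.52% in KD-Nap1l2-7d. Replicate 2 of NC-7d and replicate 2 of KD-Nap1l2 also had low interferon-stimulated genes. The summed FPKM of 8 such genes was 2039 and 2874 in NC, 2556 and 489 in NC-7d, 871 and 283 in KD-Nap1l2 and 1303 and 1839 in KD-Nap1l2-7d. Results that rest on these 2 libraries are given with and without them. Nothing states that the 2 libraries of a group came from separate cultures, so the p-values measure only the spread between these samples, which may be technical.

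On the FPKM scale, which allows levels of different genes to be compared, 33 of the 46 genes lay above 1 FPKM in every library (71.7%, against 57.3% of all 18605 genes), and 9 stayed at or below 1 FPKM throughout. *Fstl1*, a secreted follistatin-like glycoprotein, stood far above the rest at 310.4 to 748 FPKM. *Id3* and *Id1* followed at 52.6 to 169 and 70.3 to 160.4 FPKM, ranges that overlap, and then *Tgfbr2*, the type II receptor for TGF-β, at 49.2 to 75.8 FPKM and *Bmp4* at 22.9 to 76.1 FPKM. *Bmpr1a*, a type I BMP receptor, was the most abundant type I receptor gene at 27.2 to 38.5 FPKM. Levels of the Smad genes ran from *Smad9* at 1.08 to 2.47 FPKM to *Smad4* at 19.8 to 25.7 FPKM.

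**Figure D1:**
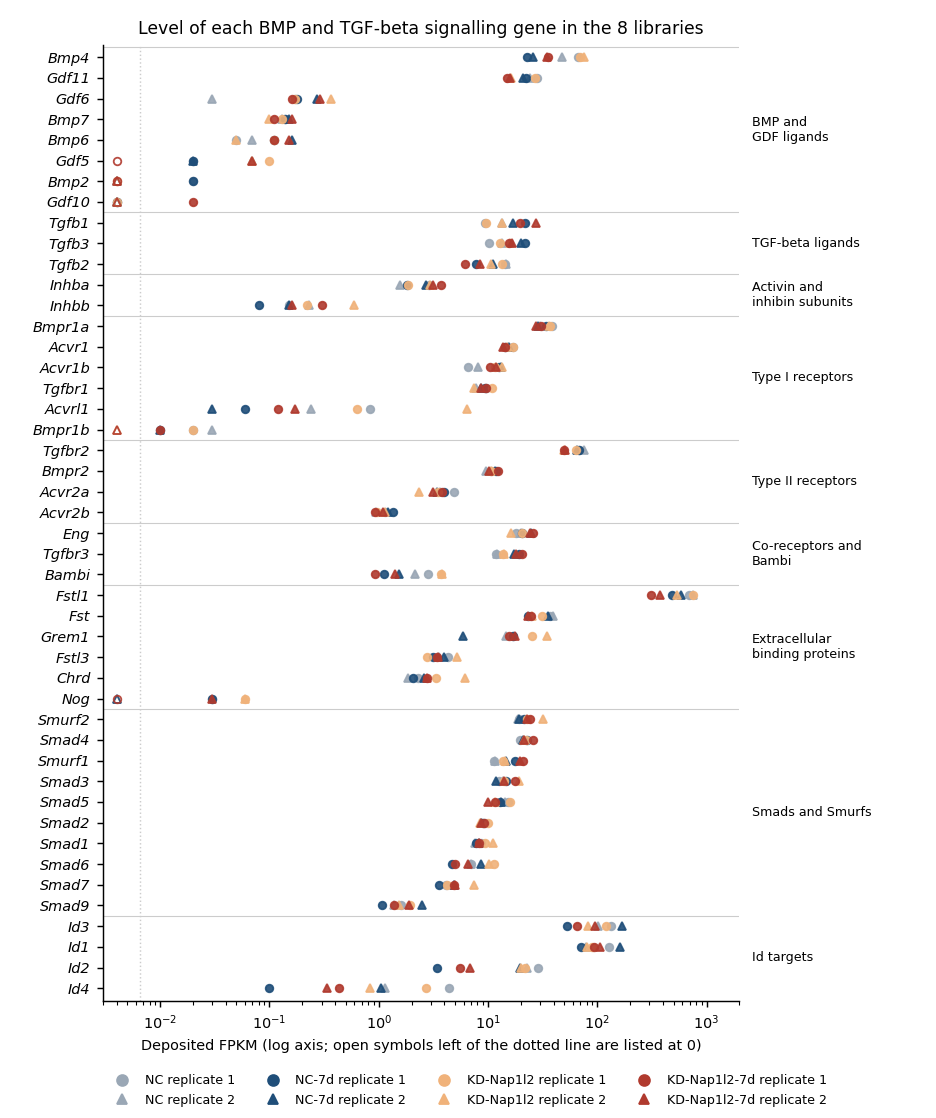
Deposited FPKM of the 46 genes in each of the 8 libraries, on a log axis, grouped by role; circles are replicate 1, triangles replicate 2, colours the 4 groups, and open symbols left of the dotted line are values listed at 0. *Fstl1* lies above all other genes in every library, and *Acvrl1*, *Id4* and *Id2* spread most among the genes above 1 FPKM in at least 1 library.

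For the tests, normalized counts were used, that is, estimated counts divided by each library's effective size (TMM) and put on one common scale. They compare a gene between libraries, and not genes with each other. Of the 46 genes, 39 had enough counts to be tested among 13470 genes. After 7 days of induction, 4 of the 39 passed an adjusted p of 0.05 in NC (edgeR's quasi-likelihood test), 3 higher and 1 lower, where 8.21% of all tested genes passed, 4.83% higher and 3.38% lower. In the KD-Nap1l2 cells 6 passed, 2 higher and 4 lower, where 14.2% of all tested genes passed, 6.84% higher and 7.36% lower. Both shares of members, 10.3% and 15.4%, are near those of all genes. The median log2 fold change of the 39 was -0.09 in NC and -0.23 in KD-Nap1l2, against -0.00354 and -0.00705 for all tested genes. The induced and uninduced pairs did not overlap for 21 members in NC, 9 higher and 12 lower, where 57.8% of all genes did not, 29.4% higher and 28.4% lower. In KD-Nap1l2 this held for 23 members, 6 higher and 17 lower, where it held for 61.4% of all genes, 30.8% higher and 30.6% lower. The 2 inductions share no library, and 32 of the 39 members (82.1%) had fold changes of the same sign in both, as did 74.4% of all tested genes. *Bmp4* and *Tgfbr3* were called in both. In RNA from bulk cultures, fewer cells that express a gene and less RNA per cell cannot be told apart.

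The counts of calls over all tested genes moved with single libraries, and so did these counts of called members. In NC the count was 0 when NC replicate 1 was left out, 1 when NC replicate 2 was, 2 without NC-7d replicate 1, and 1 without either library of KD-Nap1l2-7d, which enters through the shared estimate of the spread. Without NC-7d replicate 2 it was 5, of which *Bmp4* and *Tgfbr3* were among the 4. In KD-Nap1l2 the count was 0 without KD-Nap1l2-7d replicate 1, 1 without KD-Nap1l2-7d replicate 2, 3 without either NC library, 11 without either NC-7d library and 5, of which 3 were among the 6, without KD-Nap1l2 replicate 2. With NC-7d replicate 2 and KD-Nap1l2 replicate 2 both left out, an alternative chosen after seeing the data, 11 members were called in each induction. In NC these were the 4 together with *Fst*, *Id2*, *Id3*, *Id4*, *Smurf1*, *Tgfb1* and *Tgfb2*, and in KD-Nap1l2 5 of the 6 (without *Acvrl1*) together with *Gdf11*, *Id2*, *Id4*, *Smad6*, *Tgfb1* and *Tgfb2*.

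**Figure D2:**
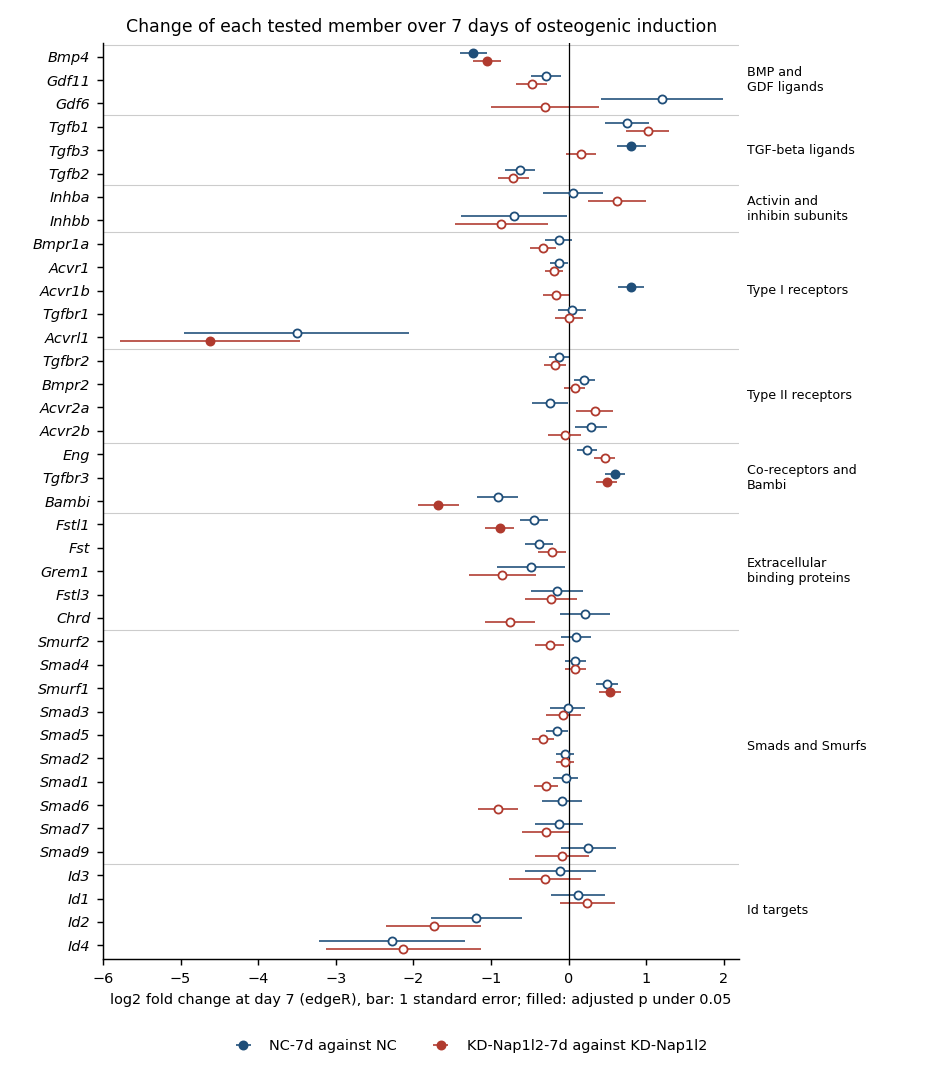
log2 fold change of the 39 tested members over 7 days of induction, in NC (blue) and in KD-Nap1l2 cells (red), from edgeR; bars are 1 standard error and filled points have an adjusted p under 0.05. *Bmp4* and *Tgfbr3* are filled in both colours, and most points, including nearly all Smads, lie within 1 unit of 0.

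Among the BMP and GDF ligands, *Bmp4*, an inducer of mesenchymal and bone development (chr14:46383525-46390669 in GRCm38.p6, the build of all positions given), fell in both inductions. It had 2066 and 1462 normalized counts in NC and 721 and 786 in NC-7d, and 2064 and 2454 in KD-Nap1l2 and 1082 and 1090.2 in KD-Nap1l2-7d. All 4 induced libraries lay below all 4 uninduced ones. The means were 1764 ± 427 (SD, n = 2) and 754 ± 45.8 (SD, n = 2) in NC, a 2.34-fold fall with a log2 fold change of -1.23 (SE 0.18, adjusted p = 0.00850). In the KD-Nap1l2 cells the fall was 2.08-fold, with a log2 fold change of -1.06 (SE 0.18, adjusted p = 0.0103). Over the alternatives the adjusted p ran from 2.38e-07 to 0.0568 in NC, above 0.05 only without NC replicate 1, and from 9.76e-06 to 0.0931 in KD-Nap1l2, above 0.05 only without either KD-Nap1l2-7d library. *Gdf11*, which signals through activin receptors, had 936 and 800.2 normalized counts in NC, 743 and 676 in NC-7d, 849 and 561 in KD-Nap1l2 and 487 and 529 in KD-Nap1l2-7d, and did not pass (adjusted p = 0.409 and 0.150 from edgeR). *Gdf6* passed the filter with only 1.87 to 25.0 normalized counts.

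Of the 8 BMP and GDF ligand genes among the members, *Bmp4* and *Gdf11* supplied nearly all the RNA. By FPKM, *Bmp4* made up 69.9% and 65.8% of the summed level of the 8 genes in NC, 50.4% and 54.6% in NC-7d, 71.8% and 81.8% in KD-Nap1l2 and 69.7% and 67.8% in KD-Nap1l2-7d. Its share was lower after induction in both kinds of cells, without overlap. These shares were not tested. *Bmp2*, the other BMP gene most tied to bone, had 1 count in NC replicate 1, 1 in NC-7d replicate 1 and 0 in the other 6 libraries. *Gdf10* had 1 count in KD-Nap1l2-7d replicate 1 and 0 in the other 7. *Gdf5* had at most 4 counts. A library with 0 counts still allows up to 3, so differences of these 3 genes were not detectable at this depth. *Bmp6* had 2.95 and 3.74 normalized counts in NC, 6.42 and 8.63 in NC-7d, 5.87 and 3.12 in KD-Nap1l2 and 6.01 and 8.35 in KD-Nap1l2-7d. Its induced libraries lay above the uninduced ones in both kinds of cells, on only 3 to 9 estimated counts per library. KD-Nap1l2 replicate 1 and KD-Nap1l2-7d replicate 1 both had 6 estimated counts, so their order came from the scaling alone. *Bmp6* was not called in the edgeR fit without a filter. *Bmp7* had 6.7 to 10.2 estimated counts per library and was not called in that fit either.

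The 3 TGF-β ligand genes had similar levels before induction, from 9.46 to 16.0 FPKM, and differed in the direction of their values over induction. In every induced library *Tgfb2*, at 6.22 to 11.2 FPKM, lay below *Tgfb1* and *Tgfb3*. *Tgfb3* (chr12:86056743-86079041) had 641 and 837 normalized counts in NC and 1379 and 1206 in NC-7d, with no overlap, and rose 1.75-fold with a log2 fold change of 0.81 (SE 0.19, adjusted p = 0.0403). The call was lost without any one library of NC, NC-7d or KD-Nap1l2-7d (edgeR adjusted p = 0.0635 to 0.276). In the KD-Nap1l2 cells it had 761 and 1036 before and 962 and 1043 after induction, groups that overlap, with a log2 fold change of 0.16 (SE 0.19, adjusted p = 0.606). The difference between the 2 inductions was -0.65 (SE 0.27, adjusted p = 0.698) and did not pass.

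*Tgfb1* had 379 and 534 normalized counts in NC, 888 and 654 in NC-7d, 365 and 557 in KD-Nap1l2 and 771 and 1092 in KD-Nap1l2-7d. Each induced library lay above each uninduced one, but the log2 fold changes, 0.76 (SE 0.28, adjusted p = 0.150) in NC and 1.02 (SE 0.28, adjusted p = 0.0501) in KD-Nap1l2, did not pass with edgeR. *Tgfb2* went the other way, with 1285 and 1298 normalized counts in NC and 708 and 963 in NC-7d, and 1154 and 985 in KD-Nap1l2 and 548 and 754 in KD-Nap1l2-7d. Its log2 fold changes of -0.63 (SE 0.20, adjusted p = 0.0978) and -0.72 (SE 0.20, adjusted p = 0.0508) did not pass either. In the KD-Nap1l2 cells both were close to the threshold, and *Tgfb1* was called under 9 of 17 alternatives and *Tgfb2* under 6 of 17, DESeq2's Wald test among them. In NC each was called under 1 of 17, with both libraries that stood apart left out. By FPKM, *Tgfb2* made up 42.3% and 35.1% of the summed TGF-β ligand level in NC and 15.1% and 23.3% in NC-7d, and 37.5% and 26.6% in KD-Nap1l2 and 15.1% and 16.1% in KD-Nap1l2-7d. Its share was lower in all 4 induced libraries, and the share of *Tgfb1* was 26.8% and 33.6% in KD-Nap1l2 and 47.2% and 52.1% in KD-Nap1l2-7d. These shares were not tested.

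**Figure D3:**
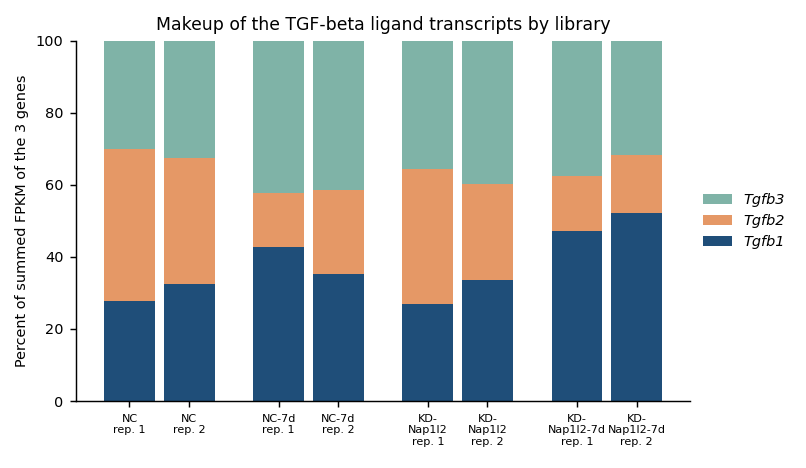
Percent of the summed FPKM of *Tgfb1*, *Tgfb2* and *Tgfb3* held by each gene, 1 bar per library. *Tgfb2* takes 26.6% to 42.3% in the 4 uninduced libraries and 15.1% to 23.3% in the 4 induced ones.

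The activin and inhibin subunit genes were low. *Inhba*, whose product forms activin A, had 97.5 and 51.4 normalized counts in NC, 63.2 and 91.1 in NC-7d, 65.6 and 101 in KD-Nap1l2 and 143 and 113 in KD-Nap1l2-7d. The highest values were those of KD-Nap1l2-7d, and neither induction passed (edgeR adjusted p = 0.948 and 0.293). *Inhbb* ranged from 6.42 to 48.9 normalized counts, with the highest value in KD-Nap1l2 replicate 2.

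Of the 9 tested receptor kinase genes, *Acvr1b* and *Acvrl1* were the ones with a call. *Acvr1b*, a type I receptor for activins (chr15:101174072-101213684), had 396 and 489.8 normalized counts in NC and 780.3 and 768 in NC-7d, a 1.75-fold rise with a log2 fold change of 0.81 (SE 0.17, adjusted p = 0.0274). In KD-Nap1l2 it had 664 and 845, and in KD-Nap1l2-7d 631 and 718, so these groups overlapped and the log2 fold change was -0.16 (SE 0.17, adjusted p = 0.544). The 2 NC libraries were thus the lowest of the 8. The rise in NC lost its call when any one library of NC, NC-7d or KD-Nap1l2-7d was left out, with an edgeR adjusted p of 0.0555 to 0.205.

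*Acvrl1*, a type I receptor best known from endothelial cells (chr15:101128522-101145336), had 56.1 and 15.9 normalized counts in NC, 4.28 and 1.92 in NC-7d, 40.1 and 446 in KD-Nap1l2 and 8.02 and 11.5 in KD-Nap1l2-7d. A single library, KD-Nap1l2 replicate 2, stood 11.1-fold above its partner and far above the other 7. The log2 fold change of induction in KD-Nap1l2 was -4.62 (SE 1.16, adjusted p = 0.0368), and without that library it was -2.03 (adjusted p = 0.157 from edgeR). In NC the log2 fold change was -3.50 (SE 1.45, adjusted p = 0.187), with 4 and 2 raw counts left in NC-7d. The endothelial genes *Cdh5* and *Pecam1* had 0.979 and 0 and 14.7 and 10.4 normalized counts in the 2 KD-Nap1l2 libraries. All 6 endothelial markers summed to 1.6 and 1.2 FPKM there, with 1 above 1 FPKM in each KD-Nap1l2 library and 0 in every other library. Over induction in KD-Nap1l2 the 3 tested ones had log2 fold changes from -2.81 to 2.56. Of these, 1 was called lower (edgeR adjusted p = 0.00825), where 7.36% of all tested genes were. Between KD-Nap1l2 and NC the 3 tested endothelial markers ran from -4.71 to 1.13, with 0 called. Their part in the value of *Acvrl1* was not tested.

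The other 7 tested receptor kinase genes had log2 fold changes from -0.33 (*Bmpr1a* in KD-Nap1l2) to 0.34 (*Acvr2a* in KD-Nap1l2), and 0 of them passed with edgeR or DESeq2, in NC or in KD-Nap1l2, with 0 at an unadjusted p under 0.05 from edgeR. *Bmpr2*, the main type II receptor for BMPs, ranged from 1892 to 2424 normalized counts over the 8 libraries, and *Tgfbr1*, the type I receptor for TGF-β, from 813 to 1091. *Bmpr1b* had at most 3 counts and was not tested.

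*Tgfbr3*, or betaglycan, a co-receptor that presents TGF-β to the type II receptor (chr5:107106567-107289629), rose in both inductions. It had 1339 and 1341 normalized counts in NC and 2176 and 1882 in NC-7d, and 1448 and 1649.5 in KD-Nap1l2 and 2302 and 2049 in KD-Nap1l2-7d. All 4 induced libraries lay above all 4 uninduced ones. The log2 fold change was 0.60 (SE 0.13, adjusted p = 0.0336) in NC and 0.49 (SE 0.13, adjusted p = 0.0461) in KD-Nap1l2, or 1.51-fold and 1.40-fold. Both calls were near the threshold, and over the alternatives the adjusted p ran from 0.00668 to 0.206 in NC and from 0.0284 to 0.261 in KD-Nap1l2. *Eng*, or endoglin, a second co-receptor and a mesenchymal marker, had 1238 and 1071 normalized counts in KD-Nap1l2 and 1629 and 1551 in KD-Nap1l2-7d, and just missed the threshold (edgeR adjusted p = 0.0552), which it passed under 1 of 17 alternatives, without KD-Nap1l2 replicate 1. In NC it had 1154 and 1261 and in NC-7d 1318 and 1524 (adjusted p = 0.320).

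*Bambi*, a pseudoreceptor without a kinase domain that dampens signalling of this family, fell in the KD-Nap1l2 cells. It had 328 and 369 normalized counts in KD-Nap1l2 and 86.2 and 132 in KD-Nap1l2-7d, a 3.20-fold fall with a log2 fold change of -1.68 (SE 0.27, adjusted p = 0.00820). It missed the threshold without KD-Nap1l2-7d replicate 1 (edgeR adjusted p = 0.0758) and passed under each of the other 16 alternatives. In NC it went from 267 and 200.1 to 107 and 140, with a log2 fold change of -0.92 (SE 0.26, adjusted p = 0.0748) that did not pass with edgeR and did with DESeq2. The groups did not overlap in either induction. The difference between the inductions, -0.76 (SE 0.37, adjusted p = 0.721), did not pass.

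**Figure D4:**
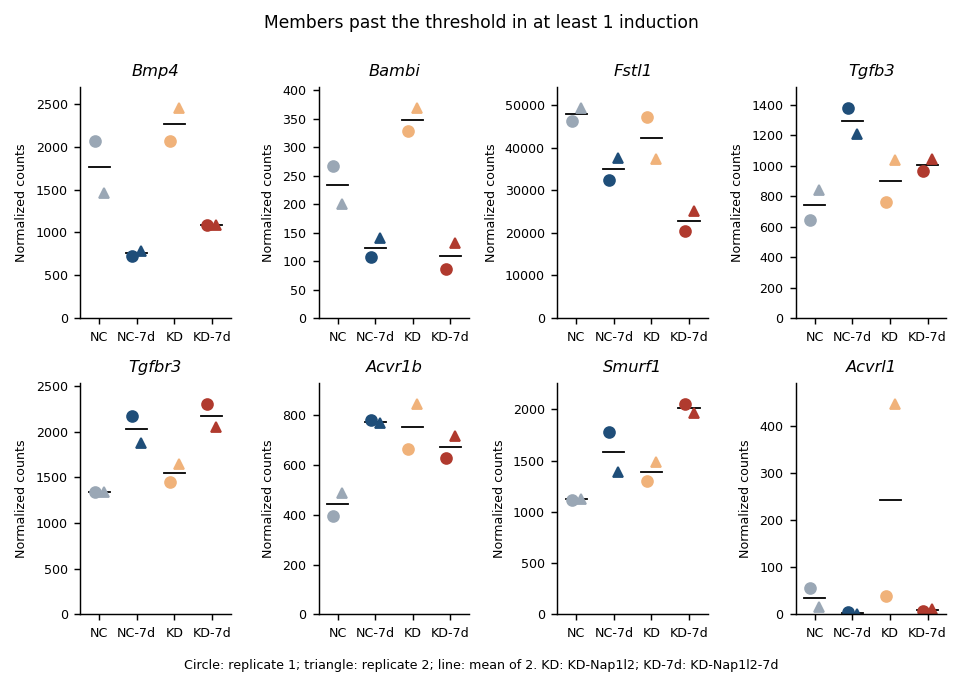
Normalized counts of the 8 members called in at least 1 induction, by group; circles are replicate 1, triangles replicate 2 and lines the mean of 2, with each axis starting at 0. *Bmp4*, *Bambi* and *Fstl1* are lower in all 4 induced libraries than in their own uninduced pair, and *Acvrl1* is high in 1 library.

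Among the extracellular binding proteins, *Fstl1* (chr16:37777055-37836516) fell in the KD-Nap1l2 cells, from 47101 and 37372 normalized counts to 20495 and 25052. This 1.85-fold fall had a log2 fold change of -0.89 (SE 0.18, adjusted p = 0.0193), and the call was lost without either KD-Nap1l2-7d library (edgeR adjusted p = 0.157 and 0.0772). In NC it had 46298 and 49364 before and 32386 and 37535 after induction, also without overlap, with a log2 fold change of -0.45 (SE 0.18, adjusted p = 0.176) that did not pass. The remaining 4 tested genes had 0 calls in either induction in the main edgeR fit or with DESeq2, and 1 (*Chrd*, in KD-Nap1l2) had an unadjusted p under 0.05 from edgeR. *Grem1*, an antagonist of BMP ligands, had 513 and 437 normalized counts in NC, 513 and 169.7 in NC-7d, 719 and 1091 in KD-Nap1l2 and 465 and 535 in KD-Nap1l2-7d. Its lowest value was in NC-7d replicate 2 and its highest in KD-Nap1l2 replicate 2. *Chrd*, or chordin, another BMP antagonist, was also highest in KD-Nap1l2 replicate 2, with 185 and 376 normalized counts in that group against 131 and 113 in NC, 126 and 155 in NC-7d and 164 and 167 in KD-Nap1l2-7d. *Fst*, which binds activins, ranged from 1148 to 1912 normalized counts and *Fstl3* from 94.0 to 195. *Grem1*, *Fst* and *Chrd* were called only in some of the fits that left out a library of NC-7d or KD-Nap1l2. *Nog*, or noggin, had 0 to 2 counts per library.

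Among the Smad genes, *Smad6* in the KD-Nap1l2 cells was the one called under some of the alternatives. *Smad1*, *Smad2*, *Smad3*, *Smad4*, *Smad5* and *Smad9*, the signal carriers, had log2 fold changes between -0.33 and 0.25 in the 2 inductions, and 0 were called with edgeR or DESeq2, with 0 in NC and 0 in KD-Nap1l2 at an unadjusted p under 0.05 from edgeR. *Smad2* was the steadiest, at 1357 to 1558 normalized counts over the 8 libraries. *Smad6*, an inhibitory Smad of the BMP branch, had 582 and 572 normalized counts in KD-Nap1l2 and 265 and 349 in KD-Nap1l2-7d. Its log2 fold change of -0.91 (SE 0.26, adjusted p = 0.0533) missed the threshold. It passed under 7 of 17 alternatives, which were DESeq2 and 6 edgeR fits (no filter, only the libraries compared, the replicate block, without either NC-7d library, and with both libraries that stood apart left out). In NC it had 375 and 368 before and 253 and 447 after induction, where the 2 induced libraries lay on either side of the uninduced ones. *Smad7*, an inhibitory Smad for both branches, stood 2.01-fold higher in KD-Nap1l2 replicate 2 than in replicate 1 and ranged from 282 to 617 normalized counts over all libraries.

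*Smurf1*, a ubiquitin ligase that marks BMP Smads and receptors for degradation (chr5:144876495-144965899), rose in the KD-Nap1l2 cells from 1298 and 1482 normalized counts to 2050.1 and 1968, with a log2 fold change of 0.53 (SE 0.15, adjusted p = 0.0475). Over the alternatives its adjusted p ran from 0.0179 to 0.224, and it was past the threshold in 8 of 17, losing the call without any one library of NC, KD-Nap1l2 or KD-Nap1l2-7d. In NC it had 1118 and 1128 before and 1775 and 1388 after induction, without overlap, and a log2 fold change of 0.49 (SE 0.15, adjusted p = 0.0814) that did not pass. *Smurf2*, its close relative, had 2029 and 3063 in KD-Nap1l2 and between 1669.6 and 2204 normalized counts in the other 6 libraries, and did not pass in either induction (edgeR adjusted p = 0.796 and 0.415).

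The Id genes encode helix-loop-helix proteins that cannot bind DNA and hold back other transcription factors, and they are regarded as immediate targets of BMP Smads. The promoters of *Id2*, *Id3* and *Id4* are in the reference table, and that of *Id1* is not. The Id genes were picked for this because their values moved together between the NC-7d libraries. For *Id2*, *Id3* and *Id4*, the 250 bases before the RefSeq start (GRCm38.p6) are printed here, 5′ to 3′ on the strand of the gene. Capitals mark GGCGCC, a palindrome found in BMP-responsive elements, and CAGAC or its reverse complement GTCTG, the core of the Smad box. The window of *Id2* lies at chr12:25096093-25096342, minus strand, that of *Id3* at chr4:136143572-136143821, plus strand and that of *Id4* at chr13:48260866-48261115, plus strand.
Id2: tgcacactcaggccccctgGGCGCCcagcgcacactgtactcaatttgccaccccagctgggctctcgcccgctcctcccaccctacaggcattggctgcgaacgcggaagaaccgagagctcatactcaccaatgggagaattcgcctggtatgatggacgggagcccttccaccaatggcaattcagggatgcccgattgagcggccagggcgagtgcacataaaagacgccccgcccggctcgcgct
Id3: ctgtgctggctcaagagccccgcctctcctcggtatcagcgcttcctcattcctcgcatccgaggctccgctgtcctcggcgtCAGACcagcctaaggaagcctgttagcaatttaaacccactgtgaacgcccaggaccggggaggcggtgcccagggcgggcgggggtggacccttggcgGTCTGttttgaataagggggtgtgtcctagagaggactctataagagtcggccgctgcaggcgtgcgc
Id4: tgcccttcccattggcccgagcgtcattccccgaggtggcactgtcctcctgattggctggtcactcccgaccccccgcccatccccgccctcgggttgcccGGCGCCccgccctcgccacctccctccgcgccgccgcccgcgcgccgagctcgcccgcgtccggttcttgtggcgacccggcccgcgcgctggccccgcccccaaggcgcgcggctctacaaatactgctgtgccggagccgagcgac
*Id2* and *Id4* each hold 1 GGCGCC and no CAGAC or GTCTG, and *Id3* holds 1 CAGAC and 1 GTCTG and no GGCGCC. In windows of this length, 9.59% of all 32851 RefSeq promoters hold GGCGCC and 42.2% hold CAGAC or GTCTG on the printed strand, which covers both strands since both readings were searched. Such a match is a description of the sequence and not a binding site. Sequence further upstream was not searched, and any part of these motifs in the Id values was not tested.

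*Id1* and *Id3* covered their whole range within the NC-7d pair, while *Id2* and *Id4* were lower after induction in both kinds of cells, without overlap. *Id1* had 2176 and 1322 normalized counts in NC, 1198 and 2609.8 in NC-7d, 1432 and 1399 in KD-Nap1l2 and 1564 and 1784 in KD-Nap1l2-7d. *Id3* had 2313 and 1709 in NC, 914 and 2807 in NC-7d, 1938 and 1464 in KD-Nap1l2 and 1117 and 1638 in KD-Nap1l2-7d. For both genes the 2 NC-7d libraries were the lowest and the highest of the 8. *Id2* had 668 and 515 in NC, 80.3 and 436 in NC-7d, 475 and 483 in KD-Nap1l2 and 127 and 159.8 in KD-Nap1l2-7d. Both uninduced libraries lay above both induced ones in NC and in KD-Nap1l2, but the log2 fold changes, -1.19 (SE 0.59, adjusted p = 0.262) and -1.74 (SE 0.61, adjusted p = 0.0969), did not pass. They passed under 2 and 4 of 17 alternatives. *Id4* had 134 and 34.6 in NC, 3.21 and 30.7 in NC-7d, 77.3 and 26.0 in KD-Nap1l2 and 13.0 and 10.4 in KD-Nap1l2-7d. Its log2 fold changes, -2.28 (SE 0.94) and -2.13 (SE 1.0), did not pass (edgeR adjusted p = 0.187 and 0.189).

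Replicate 2 of NC-7d exceeded replicate 1 by 2.18-fold for *Id1*, 5.43-fold for *Id2*, 3.07-fold for *Id3* and 9.55-fold for *Id4*, and by 2.17-fold for *Smad9* and 1.77-fold for *Smad6*, while *Grem1* was lower at 0.331 of replicate 1. In all, 6 of the 39 members were at least 2-fold apart within this pair, against 8.47% of all tested genes, and 4 of the 6 were the Id genes. *Junb*, an immediate-early gene and also a BMP and TGF-β response gene, had 1084 and 5341 normalized counts in the same 2 libraries. *Cyr61*, a TGF-β response gene, had 684 and 8436, and the interferon-stimulated sum ran the other way, from 2556 to 489 FPKM. Their part in the Id values was not tested. Without NC-7d replicate 2 the log2 fold change of *Id2* in NC was -2.88 (edgeR adjusted p = 0.00237), and without NC-7d replicate 1 it was -0.44 (adjusted p = 0.333). With both libraries that stood apart left out, *Id2* was -2.88 in NC and -1.72 in KD-Nap1l2 (edgeR adjusted p = 0.000821 and 0.00234). Within the other pairs, 3 members were at least 2-fold apart in NC (4.6% of all genes), 7 in KD-Nap1l2 (8.03%) and 0 in KD-Nap1l2-7d (3.52%).

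**Figure D5:**
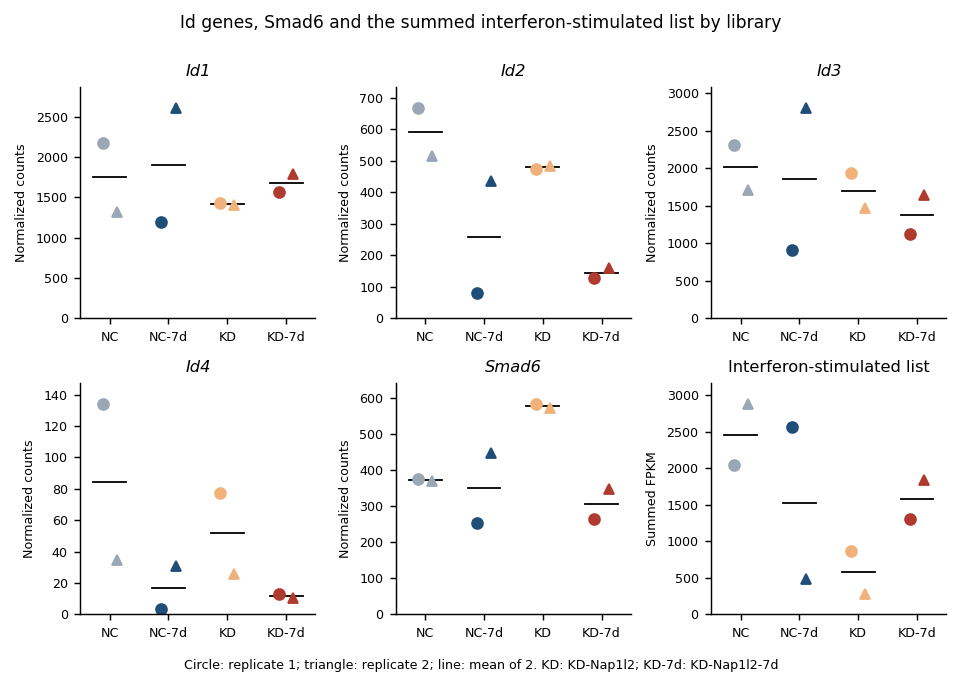
Normalized counts of the 4 Id genes and *Smad6*, and the summed FPKM of 8 interferon-stimulated genes, by group; circles are replicate 1, triangles replicate 2 and lines the mean of 2, with each axis starting at 0. In NC-7d the triangle lies above the circle for all 5 genes and below it for the interferon-stimulated sum.

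Before induction, 0 of the 39 members were called between KD-Nap1l2 and NC with edgeR, where 0.0817% of all tested genes were, 0.0223% higher and 0.0594% lower. At an unadjusted p under 0.05 from edgeR there were 8 members, against 1852 of all 13470 tested genes. DESeq2's Wald test called 2 members, *Acvr1b* and *Chrd*, against 453 of all genes. The median log2 fold change of the members was 0.07, against 0.0106 for all tested genes, and 15 members did not overlap between the groups, 10 higher and 5 lower, against 43.2% of all genes, 22% higher and 21.2% lower. *Acvr1b* was higher in KD-Nap1l2 in both libraries, with a log2 fold change of 0.77 (SE 0.17, adjusted p = 0.121); this comparison uses the same NC libraries as its induction. *Acvrl1*, *Chrd* and *Grem1* had the largest log2 fold changes among members averaging 50 or more normalized counts, 2.76 (SE 1.0, adjusted p = 0.281), 1.20 (SE 0.32, adjusted p = 0.171) and 0.93 (SE 0.43, adjusted p = 0.395). Without KD-Nap1l2 replicate 2 they were 0.16, 0.60 and 0.60, so that the value of *Acvrl1* rests on that library and those of *Chrd* and *Grem1* do in part. In that library *Fn1*, the fibronectin gene and a TGF-β response gene, was also high, with 89606 and 169106 normalized counts in the 2 libraries of the group, and its part in these values was not tested. Without KD-Nap1l2 replicate 1 the count of calls was 4, and without KD-Nap1l2 replicate 2 it was 0.

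After induction, 0 of the 39 members were called between KD-Nap1l2-7d and NC-7d, with edgeR and with DESeq2, and 0% of all tested genes were with edgeR. At an unadjusted p under 0.05 there were 5 members with edgeR, against 1057 of all 13470 tested genes, and 4 members with DESeq2. The median log2 fold change was -0.04, against -0.00560 for all tested genes, and 17 members did not overlap between the groups, 9 higher and 8 lower, against 42.1% of all genes, 21% higher and 21% lower. *Bmp4* had 721 and 786 normalized counts in NC-7d and 1082 and 1090.2 in KD-Nap1l2-7d, and the log2 fold change was 0.53 (SE 0.18, adjusted p = 0.540). *Fstl1* had 32386 and 37535 and 20495 and 25052, with -0.62 (SE 0.18, adjusted p = 0.517). *Acvrl1*, *Id2* and *Inhba* had the largest log2 fold changes among members averaging 50 or more normalized counts, 1.64 (SE 1.70, adjusted p = 0.882), -0.85 (SE 0.61, adjusted p = 0.804) and 0.73 (SE 0.38, adjusted p = 0.697). The value of *Id2* changed sign without NC-7d replicate 2, to 0.84.

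The test of the difference between the 2 inductions called 0 of the 39 members with edgeR and with DESeq2, and 0% of all genes with edgeR. At an unadjusted p under 0.05 there were 2 members with edgeR, *Acvr1b* and *Tgfb3*, against 948 of all 13470 tested genes. With DESeq2 there were 3 members. The largest differences among members averaging 50 or more normalized counts were -1.12 (SE 2.19, adjusted p = 0.935) for *Acvrl1*, -0.97 (SE 0.24, adjusted p = 0.443) for *Acvr1b* and -0.96 (SE 0.45, adjusted p = 0.718) for *Chrd*. A member called in one induction and not in the other, such as *Acvr1b*, *Tgfb3*, *Bambi*, *Fstl1* or *Smurf1*, was therefore not shown to differ between NC and KD-Nap1l2 cells.

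Beyond the 46 genes, 103 other genes of the pathways in 6 lists were read in the same way, and 72 of them were tested. In NC, 12 were called, 4 higher and 8 lower (16.7%, against 8.21% of all genes), and the median log2 fold change was -0.18, and in KD-Nap1l2 20 were called, 6 higher and 14 lower (27.8%, against 14.2%), with a median of -0.13. The count in NC was 0 without NC replicate 1, 3 without NC-7d replicate 1 and 5 when NC replicate 2 or either KD-Nap1l2-7d library was left out, 6 in a fit of NC and NC-7d alone, and 21 without both libraries that stood apart, 11 of the 12 among them. In KD-Nap1l2 it was 2 when KD-Nap1l2-7d replicate 1 was left out, 5 when its replicate 2 was, and 27 without both libraries that stood apart, 18 of the 20 among them. In both knockdown comparisons and in the difference of the inductions 0 were called with edgeR. At an unadjusted p under 0.05 from edgeR there were 8, 14 and 6, against 1852, 1057 and 948 of all 13470 tested genes. DESeq2 called 2, 0 and 0, against 453, 78 and 100 of all genes. The list of other ligands also holds *Bmp1*, which encodes a protease and not a ligand. Of the 6 tested genes of that list, 0 were called in either induction with edgeR. At an unadjusted p under 0.05 from edgeR there were 0 in NC and 1 in KD-Nap1l2, against 3300 and 4227 of all 13470 tested genes. DESeq2 called 0 in NC and 1, *Bmp1*, in KD-Nap1l2. Of the 6 other receptors and co-receptors, *Rgma*, a BMP co-receptor, was called lower in both, with log2 fold changes of -0.68 in NC and -1.07 in KD-Nap1l2.

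Of 14 other antagonists and latency proteins, 3 were called lower in NC and 4 in KD-Nap1l2, where 3.38% and 7.36% of all tested genes were. *Dcn*, or decorin, a matrix proteoglycan that binds TGF-β, had 3398 and 2665 normalized counts in NC and 417 and 756 in NC-7d, and 2809 and 4647 in KD-Nap1l2 and 352 and 536 in KD-Nap1l2-7d. Its 4 induced libraries were all far below the uninduced ones, with log2 fold changes of -2.37 (SE 0.36, adjusted p = 0.00935) and -3.07 (SE 0.37, adjusted p = 0.00316). *Thbs1*, or thrombospondin, an activator of latent TGF-β, and *Twsg1*, a modulator of BMP ligands, also fell in both, with log2 fold changes of -1.86 and -1.84, and of -0.62 and -0.73. *Ltbp4*, a latent TGF-β binding protein, fell in KD-Nap1l2 with a log2 fold change of -0.92.

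Of 20 other intracellular regulators, 2 rose in NC (10%) and 4 in KD-Nap1l2 (20%), and 0 fell. Of all tested genes, 8.21% and 14.2% were called in either direction, and 4.83% and 6.84% were called higher. *Hipk2*, a kinase, and *Wwp1*, a ubiquitin ligase related to the Smurfs, rose in both, with log2 fold changes of 1.11 and 0.75, and of 0.86 and 0.69. *Pmepa1* and *Skil*, feedback inhibitors of TGF-β signalling, rose in KD-Nap1l2 with log2 fold changes of 2.38 (SE 0.45, adjusted p = 0.0145) and 1.70 (SE 0.31, adjusted p = 0.0138). *Pmepa1* had 329.8 and 195 normalized counts in KD-Nap1l2 and 1563 and 1169 in KD-Nap1l2-7d, and 593 and 664 in NC and 1706 and 644 in NC-7d, where only replicate 1 was high.

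The 15 tested TGF-β response genes did not move one way. In NC, 2 rose and 1 fell (20%, against 8.21% of all genes called). In KD-Nap1l2, 1 rose and 4 fell (33.3%, against 14.2%). *Ctgf*, a matricellular growth factor, rose in both, from 1829 and 1798 to 4169 and 4339 normalized counts in NC and from 1526 and 1308 to 8530.3 and 4835 in KD-Nap1l2, with log2 fold changes of 1.23 (SE 0.24, adjusted p = 0.0232) and 2.24 (SE 0.25, adjusted p = 0.00231). *Pdgfb*, a growth factor, fell in both (-1.51 and -1.44 on the log2 scale), *Tsc22d1* rose in NC (0.88), and *Acta2*, *Snai2* and *Col1a1*, genes of contractile cells, of mesenchymal transition and of collagen, fell in KD-Nap1l2 (-1.95, -1.60 and -1.25). Of the 12 tested BMP response genes, 3 fell in NC (25%, against 8.21% of all genes called). In KD-Nap1l2, 5 fell and 1 rose (50%, against 14.2%). The homeobox genes *Msx1* and *Dlx5* and the zinc finger gene *Gata6* fell in both, with log2 fold changes of -0.90 and -1.41 for *Msx1*, -0.75 and -0.80 for *Dlx5* and -1.22 and -0.97 for *Gata6*. *Prrx1*, a limb mesenchyme gene, and *Runx2*, the early osteoblast regulator, fell in KD-Nap1l2 (-0.72 and -0.58), where *Lrig1* rose (1.12). *Acta2*, *Prrx1* and *Runx2* are also on the smooth muscle, mesenchymal and osteoblast marker lists, and their part as markers was not tested.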

How the data were processed

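Total RNA from 8 libraries, 2 in each of 4 groups, was sequenced, and groups and replicate numbers follow the sample labels. The deposited table holds, per the file headers and its values, estimated counts per gene, which the authors made with RSEM, and the FPKM per gene that the authors derived from them. The submitters' processing notes name BWA, Bowtie2, RSEM and the mouse build GRCm38.p6, with tool versions not given in the sources used here. Totals per library were 17420284 to 19427359 counts. The authors' comparison columns (log2 fold changes, p and q values from DESeq2) were not used. No strand setting is given, so antisense or overlapping genes, such as *Smad5os* beside *Smad5*, cannot be told apart from their partners.

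Estimated counts (41.1% of genes were not whole) were rounded, filtered with filterByExpr, given TMM factors and fitted in a single model of the 8 libraries with edgeR 4.0.16 (quasi-likelihood, R 4.3.3), with Benjamini-Hochberg adjustment over 13470 genes and a threshold of 0.05. Normalized counts are counts per effective library size on one common scale. With 2 libraries a group an exact test could not reach 0.05. Alternatives were DESeq2 1.42.0, other size factors, no filter, a stricter filter (10 counts in each library), models of just the compared groups, a replicate block, limma 3.58.1 on log2(FPKM + 1) and log2(FPKM + 0.1), and each library left out. A count of 0 was read as up to 3 counts, which covers counting error only. Genes named with statistics are the called members and, in each comparison, the 3 with the largest log2 fold change among members averaging 50 or more normalized counts, and the called genes of each other list, at most 6. Other values named, such as those of *Junb*, *Cyr61*, *Fn1*, *Cdh5* and *Pecam1*, were chosen after their values were seen. The 46 genes and all lists were chosen with earlier results of these data known. Promoters came from a RefSeq table, in which 32 of the 46 genes matched.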

Additional observations from a re-analysis of the deposited data

How the results depend on the processing

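Of 365 alternative values for 22 named values of single genes, 294 kept direction and side of the threshold, 56 were no longer past it, 11 newly passed and 4 reversed. The reversals were *Id2* after induction (-0.85, and -1.60 to 0.84 with 1 library left out, the highest without NC-7d replicate 2, and 0.84 with both libraries that stood apart left out) and *Acvrl1* in the difference of inductions (-1.12, and -2.29 to 1.48 with 1 left out, the highest without KD-Nap1l2 replicate 2, and 1.0 with both left out). Members called in NC were 4, and 2 with only the libraries compared, 11 with both left out and 0 to 5 with 1 library left out. In KD-Nap1l2 they were 6, and 11 with both left out and 0 to 11 with 1 left out. Before induction they were 0, and 2 with DESeq2 and 0 to 4 with 1 left out. Among all genes, the calls in NC were 1106, and 1844 with both left out and 122 to 1490 with 1 left out, and in KD-Nap1l2 1912 and 305 to 2218. Before induction they were 11, and 453 with DESeq2, 160 with no filter, 4 with at least 10 counts in every library, 0 with only the libraries compared, 33 and 18 with limma at a pseudocount of 1 and 0.1, 145 with both left out and 0 to 562 with 1 left out. After induction they were 0, and 78 with DESeq2, 6 with both left out and 0 to 1 with 1 left out. For the difference they were 0, and 100 with DESeq2, 1 with no filter, 1 with both left out and 0 to 19 with 1 left out. The cause of these shifts was not tested.

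Deviations of same-numbered libraries correlated at -0.05 to 0.11 across 13470 genes, which are not independent. Such values cannot show whether same-numbered libraries were handled together, and the labels do not say. With the replicate block, members called were 3 in NC (*Tgfbr3* lost) and 5 in KD-Nap1l2 (*Bambi*, *Bmp4* and *Fstl1* kept, *Acvrl1*, *Smurf1* and *Tgfbr3* lost, *Smad6* and *Tgfb1* gained), and all genes called before induction were 4. Depth limits the 7 untested members, and 2 libraries a group limit every call.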

Other observations

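Transcript-level shares, which rest on how RSEM divides reads among overlapping transcripts, were less stable than gene totals. Of the 39 tested members, 13 had a single transcript with at least 95% of the gene's level in every library, and in 10 the share of the leading transcript differed by more than 20 percentage points between the 2 libraries of a group. In 12 the share of at least 1 transcript did. *Acvr1b*, *Bambi*, *Fstl1*, *Tgfb3* and *Tgfbr3* have 1 transcript each in the table. For *Bmp4*, with 6 transcripts, the share of the leading one ranged from 0.000927% to 95.6% over the libraries.

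GGCGCC occurred in 10 of the 37 RefSeq promoters of 32 members within 250 bases before the start (27%, against 9.59% of all 32851 promoters), and CAGAC or GTCTG in 16 of 37 (43.2%, against 42.2%). Some members have more than 1 start, and base composition was not matched, so these shares are a description only.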
